A study of Mus musculus with 18 samples.

Results

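In the colonic epithelium of mice with an oncogenic K-Ras-G12D allele, the amount of each miRNA family held by Ago2 was set against the number and height of the Ago2 sites that match its seed. These were the 3 miRNA libraries and the 3 pulldown mRNA libraries of the K-Ras-G12D genotype, 6 of the 18 libraries of the series. The mice were Halo-Ago2/+; Fabp-Cre/+; K-Ras-G12D/+ on C57BL/6, so 1 Ago2 allele carried the Halo tag, and they were 8 to 12 weeks old. Fabp-Cre is a Cre transgene driven by a fatty acid binding protein promoter active in the gut epithelium, so what Cre switches on in these mice is limited to the cells where that promoter works. Distal colon was scraped, which enriches for epithelium but does not purify it, and was UV-crosslinked 3 times at 400 mJ per square centimetre. In HEAP, a form of CLIP-seq, the Halo-tagged Ago2 is then pulled down with a resin and digested, which frees the miRNAs and the RNA fragments it held for sequencing. Whether each library came from its own mouse is not given in the labels, so p-values measure the spread between these libraries.

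Ago2 is the protein that carries a miRNA to its target RNA. Pairing is led by the seed, bases 2 to 8 of the miRNA, so miRNAs with the same seed form a family that shares its possible sites. A site that pairs with the whole seed is called here a 7-mer, and one that also has an A opposite base 1 of the miRNA an 8-mer. In the intestine, miR-192, miR-194, miR-215 and the miR-200 group are known as epithelial miRNAs, miR-21 as a miRNA raised in many tumours, and let-7 as a brake on growth and on fetal genes.

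The authors' annotation of the peaks names 75 seed families, and all 75 were used. They took in 134 of the 459 miRNAs in the table and 97.0% ± 0.0508 of the miRNA reads (SD, n = 3 libraries). Each family is called here by its most abundant miRNA. The sum of a family's normalized miRNA reads is its loading. A peak is a stretch of RNA where Ago2-bound fragments pile up, and of 5448 annotated peaks 3255 (59.7%) held an 8-mer or 7-mer match to at least 1 family. These 3255 peaks lay in 2010 genes, and their reads, the occupancy, were 67.2% ± 1.82 of all reads in peaks. The annotated peaks come from a merged set that the authors pooled over both genotypes, so they are not of this genotype alone. Of the 3255, 3094 overlapped the authors' separate peak list for this genotype. A match means that the letters are there, not that this family was the one bound. Of the 3255 peaks, 2289 matched 1 family, 773 matched 2, 161 matched 3 and 32 matched 4 or more. A peak that matched several families was counted in each.

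The miRNA libraries held 337788, 388247 and 433245 reads, and the pulldown libraries held 148927, 723937 and 247358 reads in merged peaks, so pulldown library 2 was the deepest. At most 37 of the 3255 peaks had 0 reads in any one library. The 8 marker miRNAs of intestinal epithelium made up 26.5% ± 1.05 of miRNA reads. Of the 9 listed for smooth muscle and stroma, 6 were in the table with 0.0379% ± 0.0110 of the reads, miR-145a-3p being at 0. Of the 9 for blood and endothelium, 7 were in the table with 0.210% ± 0.0183, none at 0. The 4 neural and enteroendocrine miRNAs, 3 of them in the table, held 2.04% ± 0.219, most of it miR-375-3p.

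The mature sequences that carry the results are printed 5′ to 3′ from RefSeq (GRCm38.p6), with the seed in capitals and with the copy of the gene that the table lists first. The first set is of families whose rank by number of peaks was below their rank by loading.
miR-21a-5p: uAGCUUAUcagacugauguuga, from chr11:86584120-86584141, minus strand.
miR-192-5p: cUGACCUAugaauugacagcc, from chr19:6264857-6264877, plus strand.
miR-215-5p: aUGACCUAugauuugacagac, from chr1:185313610-185313630, plus strand.
miR-30e-5p: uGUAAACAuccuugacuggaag, from chr4:120772660-120772681, minus strand.
miR-27a-3p: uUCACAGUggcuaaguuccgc, from chr8:84208727-84208747, plus strand.
miR-221-3p: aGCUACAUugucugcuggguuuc, from chrX:19146307-19146329, minus strand.
miR-192-5p and miR-215-5p have one seed and were summed as 1 family.

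The second set is of epithelial families with over 100 matching peaks. The miR-200 group falls into separate seed families, since the seed of miR-200a-3p and miR-141-3p differs from that of miR-200b-3p, miR-200c-3p and miR-429-3p.
miR-200c-3p: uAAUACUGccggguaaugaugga, from chr6:124718324-124718346, minus strand.
miR-200b-3p: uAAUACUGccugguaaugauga, from chr4:156055685-156055706, minus strand.
miR-200a-3p: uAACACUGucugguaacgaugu, from chr4:156054911-156054932, minus strand.
miR-141-3p: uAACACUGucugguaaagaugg, from chr6:124717917-124717938, minus strand.
miR-194-5p: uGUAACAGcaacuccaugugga, from chr1:185313325-185313346, plus strand.

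The third set shows families whose seeds are shifted copies of each other, so that 1 stretch of RNA can match both.
let-7b-5p: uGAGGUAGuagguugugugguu, from chr15:85707325-85707346, plus strand.
let-7i-5p: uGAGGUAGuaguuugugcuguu, from chr10:122985698-122985719, minus strand.
miR-196b-5p: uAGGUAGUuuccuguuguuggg, from chr6:52230129-52230150, minus strand.
miR-16-5p: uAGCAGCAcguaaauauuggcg, from chr3:69009918-69009939, plus strand.
miR-103-3p: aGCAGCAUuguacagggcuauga, from chr2:131288103-131288125, plus strand.

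The fourth set is of families with more peak reads than their loading rank.
miR-22-3p: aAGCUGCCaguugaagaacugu, from chr11:75463772-75463793, plus strand.
miR-29a-3p: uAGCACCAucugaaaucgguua, from chr6:31062673-31062694, minus strand.
miR-324-3p: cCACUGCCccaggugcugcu, from chr11:70012095-70012114, plus strand.
miR-671-5p: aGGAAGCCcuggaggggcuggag, from chr5:24592132-24592154, plus strand.
miR-30e-3p: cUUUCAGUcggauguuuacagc, from chr4:120772618-120772639, minus strand.
miR-224-5p: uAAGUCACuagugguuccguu, from chrX:72261085-72261105, minus strand.
miR-30e-3p stands for the family called by miR-30d-3p, its most abundant member.

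Loading was concentrated in few families, and the sites were spread differently. The 10 families highest in loading held 63.3% ± 1.27 of all miRNA reads. They matched 1170 peaks (35.9% of the 3255) and held 29.8% ± 4.77 of the reads in seed-matched peaks. The 10 families with the most peaks held 34.7% ± 2.39 of miRNA reads and matched 1983 peaks (60.9%), with 76.5% ± 3.84 of the reads. Each group was picked by its own measure, so its high share of that measure follows from the choice. Out of the 75 families, 4 were in both groups of 10, namely those of miR-200c-3p, miR-194-5p, miR-200a-3p and miR-196b-5p. A single locus weighed on these shares. The highest peak of all, at chr17:39847480-39847543 in the RP23-81C12.3 exon annotated by the authors, lies in the rRNA-related pseudogene Rn18s-rs5 of RefSeq and held 14.6% ± 7.07 of all reads in peaks. With the 3 peaks of that locus left out, the share of seed-peak reads in the 10 families highest in loading was 38.5%.

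Across the 75 families, loading and number of peaks went together loosely. The Spearman rho was 0.56 and the Pearson r on the log2 scale 0.58, and the rho was 0.56, 0.56 and 0.54 in the 3 miRNA libraries. For loading and peak reads the values were 0.51 and 0.52. The families share all 6 libraries and many peaks, so these are descriptions with no test. Without the 2 families farthest in loading, the rho was 0.53 for peaks and 0.47 for reads. Within classes of loading the rho was lower, but a narrower range of loading by itself tends to lower a rho. Among the 25 families highest in loading the rho for number of peaks was 0.37, among the middle 25 it was -0.08 and among the lowest 25 it was 0.16. The number of peaks and the peak reads of a family, which come from the same peaks, had a rho of 0.91.

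**Figure D1:**
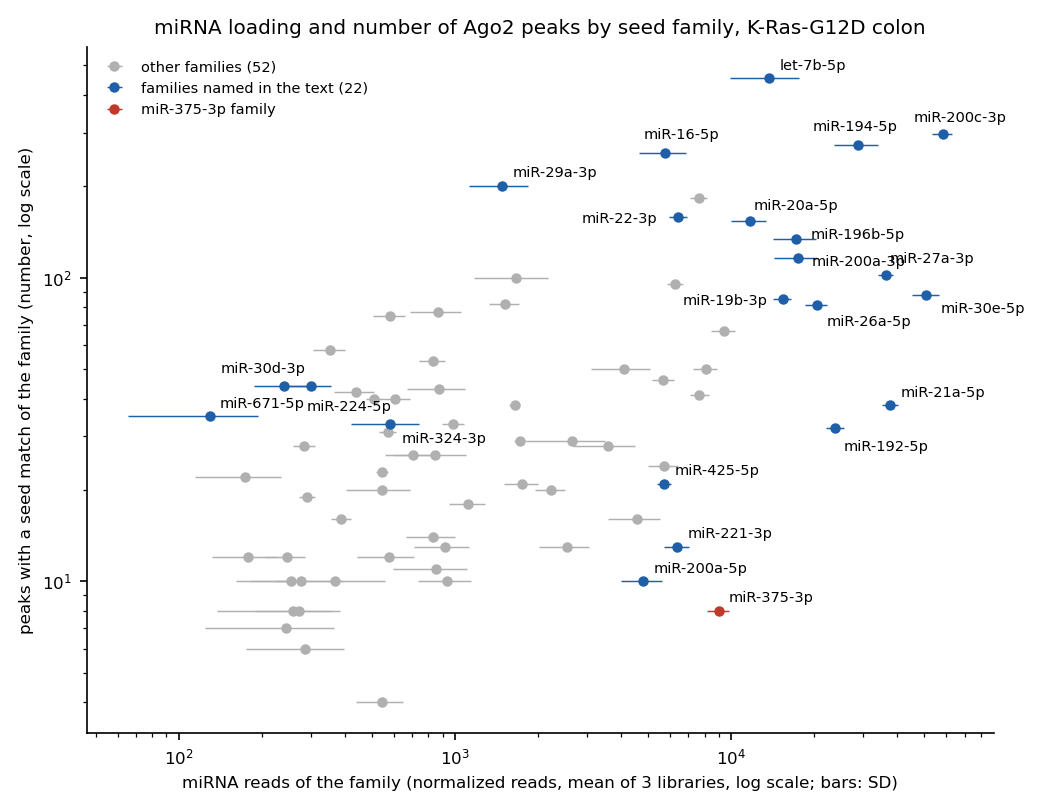
Each point is 1 of the 75 seed families, with its mean normalized miRNA reads over 3 libraries on the x axis (log scale, bars are the SD) and the number of peaks with a seed match on the y axis (log scale). The let-7b-5p family has the most peaks (454) at a loading of 13715, while the miR-21a-5p family has 38 peaks at 37519 and the miR-375-3p family 8 peaks at 8991.

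The 25 families highest in loading held 86.8% ± 0.309 of miRNA reads and matched 2397 peaks. The middle 25 held 8.35% ± 0.182 and matched 998 peaks, and the lowest 25 held 1.84% ± 0.239 and matched 527 peaks. Peaks can be in more than 1 class. The median number of peaks per family fell from 85 through 29 to 19, with a range of 8 to 454 in the highest class and 4 to 58 in the lowest. The median height of a peak varied far less between the classes than the median number of peaks. The 2 measures are not alike, since heights are of called peaks alone and a peak in several classes enters each median. The median peak had 12.3 ± 1.19, 11.7 ± 0.715 and 11.6 ± 0.662 normalized reads in the 3 classes. In pulldown library 1 all 3 medians were 10.9 normalized reads, where a single read is worth 1.09. In library 3 they were 12.9, 12.2 and 12.2, in library 2 the class highest in loading also had the highest median, and no test was made. Across families the rho of loading and median peak height was 0.23.

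To give each family a size and an error, its peak reads were compared with its miRNA reads by limma on log2(normalized reads + 1). The 2 tables were normalized separately, so each library was first centred on its own median family. The contrast of pulldown minus miRNA libraries therefore says how far a family stood from the median family in occupancy, compared with loading. Loading is part of the contrast, so a family chosen for high loading tends to have a low value, and library steps after the pulldown differ between the 2 kinds. Families with at least 10 peaks and a mean loading of at least 10 were tested, which left 69 of 75. An alternative fit that kept other families or peaks was centred on its own median family, so its 0 was not the same. At an adjusted p of 0.05, 27 families (39.1% of those tested) were higher in occupancy than in loading and 29 (42.0%) were lower, together 81.2%, and 13 were not called. Most families thus differed by more than the spread between libraries, so a call alone sets no family apart. With each library scaled to the same total, which moved the contrasts of the named families up by a median of 0.87, 40 families were higher and 23 lower. With edgeR on the recovered whole reads, 35 were higher and 26 lower.

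Of the 12 families highest in loading, 11 were lower and let-7 was higher, with a median contrast of -2.18 against 0.03 over all 69 families. With the same total per library 9 of these 12 had a value below 0, the exceptions being let-7b-5p, miR-196b-5p and miR-20a-5p. The median was -2.18 also in the 24 tested families of the highest class of loading and 1.28 in the 25 tested families lowest in loading, of which 18 were higher and the other 7 not called. These differences follow in part from the ranking by loading itself.

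**Figure D2:**
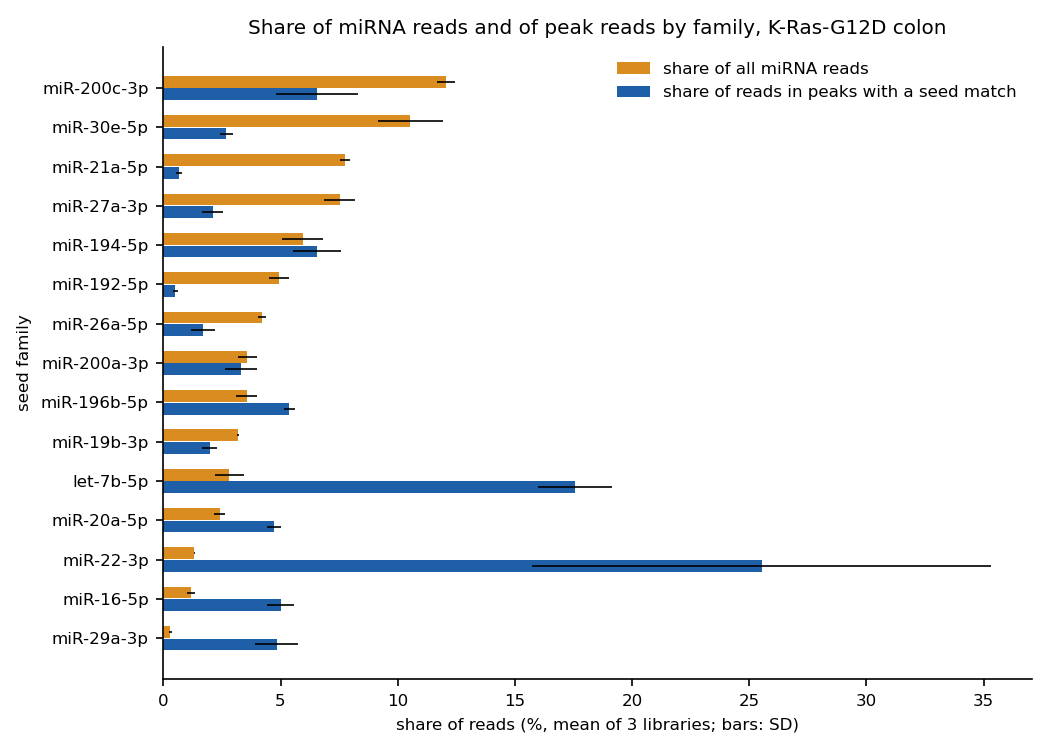
Bars give the share of all miRNA reads (orange) and of reads in seed-matched peaks (blue) of 15 families, as the mean of 3 libraries with the SD. The families are the 12 highest in loading, in that order, followed by those added by peak reads. The miR-21a-5p family had 7.76% of miRNA reads and 0.662% of peak reads, and let-7b-5p had 2.82% and 17.6%. Peaks that match several families are counted in each.

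The epithelial families were at ranks 1, 5, 6 and 8 of loading. The miR-200c-3p family was the highest of all, with 53694, 63425 and 57753 normalized miRNA reads in the 3 libraries. miR-200c-3p gave 41.7% of this and miR-200b-3p 30.3%. It was also the family with the second highest number of peaks, 297 in 285 genes, holding 5862, 8338 and 7063 normalized peak reads. Its contrast was -2.29 ± 0.11 (log2 ± SE, limma adjusted p = 2.28e-09), and with 8-mers alone it was -0.20 and not called. The 2 highest of its peaks with a gene name were 8-mers in exons of Atp1b1, a subunit of the sodium pump (chr1:164438422-164438485), and of Dmbt1, a mucosal defence glycoprotein (chr7:131111060-131111109). The Atp1b1 peak had 340, 546 and 425 normalized reads, or 6.17% of the family's peak reads.

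miR-194-5p, the sole member of its family, had a loading of 22875, 33180 and 30335 and matched 273 peaks, the third highest number. Those peaks held 6412, 7502 and 7434 reads, and the contrast was -1.24 ± 0.11 (limma adjusted p = 9.47e-07). Counted by 8-mers alone the value was 0.52 and called as higher, and in peaks that match 1 family it was 0.29 and not called. These fits were centred on the median of 34 and 48 families, so both the sites and the 0 differed from the main fit. Its highest peaks were in the 3' UTRs of Dnajc5, a co-chaperone of vesicle exocytosis (chr2:181552371-181552439, 454, 453 and 588 reads), and of S100a14, an epithelial calcium-binding protein (chr3:90528179-90528230, 290, 444 and 609 reads).

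The family of miR-200a-3p and miR-141-3p, which contributed 51.7% and 48.3%, had a loading of 15546, 20921 and 15656 and matched 116 peaks with 3076, 3970 and 3719 reads. The contrast was -1.51 ± 0.12 (limma adjusted p = 1.96e-07), but it was not called with 8-mers alone (0.21) or in peaks that match 1 family (-0.31). A single 8-mer peak in an exon of Lypd8, a secreted protein that keeps bacteria from the colonic epithelium, held 18.9% of its peak reads (chr11:58382744-58382832, 691, 586 and 753 reads). A second 8-mer, in the 3' UTR of Ppp1r15b, a regulator of eIF2 alpha dephosphorylation, had 180, 276 and 152 reads (chr1:133138532-133138597).

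miR-192-5p and miR-215-5p, which are known from the same epithelium and in part from the same locus as miR-194, went the other way in number of sites. Their family had a loading of 25191, 24293 and 21887, close to that of miR-194-5p, but matched 32 peaks. Those peaks held 469, 594 and 603 normalized reads. The contrast was -4.67 ± 0.14 (limma adjusted p = 8.23e-11), the third lowest of the 69 families. Its highest peaks were small: a 7-mer in the 3' UTR of Slc26a2, a sulphate transporter, had 46.9, 96.8 and 43.1 reads, and a 7-mer in an exon of Sepp1, which encodes selenoprotein P, had 65.4, 28.3 and 63.9 (chr15:3279585-3279631).

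Among the other families of high loading, that of miR-21a-5p showed the same pattern. miR-21a-5p had 36867, 40293 and 35396 normalized miRNA reads, the highest of any single miRNA, and its family had rank 3. It matched 38 peaks in 37 genes, rank 33 by number and 40 by reads, with 660, 797 and 694 normalized reads. The contrast was -4.95 ± 0.13 (limma adjusted p = 4.64e-11). Its median peak had 12.9 ± 1.38 reads, and no peak held more than 10.6% of its reads. The highest, lower than the highest peak of every other family of the 12 highest in loading except miR-192-5p, were 7-mers in the 3' UTR of Canx, the chaperone calnexin (chr11:50295284-50295337, 80.7, 64.4 and 82.6 reads), and in an exon of Serinc5, a membrane protein (chr13:92690954-92691030, 56.7, 98.6 and 50.3 reads).

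The miR-30e-5p family, 5 miRNAs led by miR-30e-5p (34.2%) and miR-30a-5p (27.8%), had a loading of 45666, 49655 and 57028 and matched 88 peaks with 2671, 2829 and 3342 reads. The contrast was -3.35 ± 0.14 (limma adjusted p = 8.81e-10). Its peaks lay in 3' UTRs more than those of most families, 70.5% against a median of 56.2% over the 24 families with at least 50 peaks. The highest was an 8-mer in the 3' UTR of Ccdc71l, which also matches miR-20a-5p and held 24.0% of the family's peak reads (chr12:32379708-32379758, 823, 498 and 801 reads). The next was a 7-mer in the 3' UTR of Ipmk, an inositol phosphate kinase (chr10:71381742-71381793, 132, 186 and 284 reads).

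The miR-27a-3p family had a loading of 38281, 36678 and 33880, of which miR-27a-3p gave 74.3%, and matched 102 peaks with 1913, 2496 and 2424 reads. The contrast was -3.24 ± 0.13 (limma adjusted p = 8.81e-10), while 62.7% of its peaks held an 8-mer. Its highest peaks were 8-mers in Muc2, the main gel-forming mucin of the colon (chr7:141748008-141748061, a 5' UTR in the authors' annotation, 244, 242 and 329 reads), and in an exon of Cpeb4, a regulator of poly(A) tails (chr11:31931392-31931449, 163, 213 and 294 reads).

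miR-26a-5p made up 93.2% of its family, whose loading was 19625, 22478 and 19006. It matched 81 peaks with 1508, 2205 and 1759 reads, and the contrast was -2.74 ± 0.13 (limma adjusted p = 3.52e-09). It had the highest share of 8-mers, 69.1%, among the 39 families with at least 30 peaks. An 8-mer in an exon of Cyfip1, a subunit of the actin-regulating WAVE complex, held 28.1% of its reads (chr7:55930046-55930102, 371, 647 and 521 reads), ahead of an 8-mer in the 3' UTR of Acsl3, a fatty acid activating enzyme (chr1:78706425-78706485, 89.4, 200 and 94.8 reads).

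The miR-19b-3p family, from the cluster that also gives miR-17 and miR-20a, had a loading of 14510, 16680 and 14868 and matched 85 peaks with 1906, 2278 and 2278 reads. The contrast was -2.08 ± 0.12 (limma adjusted p = 1.73e-08). Its peaks were in 3' UTRs in 77.6%, the highest share among the 24 families with at least 50 peaks. The highest was a 7-mer in the 3' UTR of Tgoln1, a trans-Golgi membrane protein, which also matches miR-20a-5p (chr6:72611936-72611998, 489, 564 and 645 reads). Another was an 8-mer in the 3' UTR of Ivns1abp (chr1:151363666-151363715, a mean of 139 ± 33.4 reads).

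The miR-20a-5p family had a loading of 11535, 13368 and 10077, split over 6 miRNAs with miR-20a-5p at 33.5% and miR-93-5p at 33.1%, and matched 154 peaks with 5030, 4938 and 5505 reads. The contrast was the nearest to 0 of the 12, at -0.41 ± 0.14 (limma adjusted p = 0.0158). It was above 0 and called with the same total per library (0.46) and with 8-mers alone (1.25), so the direction of the call changed. With edgeR the value was above 0 and not called (0.019). Its 2 highest peaks were those of Ccdc71l and Tgoln1 described above, both of which it shares with other families.

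let-7 was the family whose occupancy most exceeded its share of loading among the 12. Its 9 miRNAs, led by let-7b-5p (31.5%) and let-7i-5p (30.9%), had a loading of 12489, 18027 and 10629. Its sites were in 454 peaks in 436 genes, 13.9% of all seed-matched peaks and the most of any family. They held 17577, 17882 and 22324 normalized reads, 17.6% ± 1.59 of the reads in seed-matched peaks. The contrast was 1.28 ± 0.15 (limma adjusted p = 9.01e-06), and it was 1.63 with the highest peak of each family left out. It was 3.55 from 8-mers alone and 0.50 in 3' UTR peaks alone, both called. From 7-mers alone it was 0.05 and not called. Each of these fits was centred on its own median family. An 8-mer was in 57.9% of the let-7 peaks. The highest peak was an 8-mer in an exon of Muc2 with 1761, 1941 and 2925 reads (chr7:141691356-141691406), followed by an 8-mer in Muc3, a membrane mucin, with 1031, 1814 and 1623 (chr5:137150520-137150580).

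miR-196b-5p and miR-196a-5p, which gave 68.7% and 31.3% of their family, had a loading of 14239, 20355 and 17060. The family matched 134 peaks with 5749, 5235 and 6723 reads, but most of these were also let-7 peaks. Its 7-mer site, ACTACCT, shares 6 bases with the let-7 site, CTACCTC, as the shifted seeds above show. The families had 101 peaks in common, 75.4% of those of miR-196b-5p and 22.2% of those of let-7b-5p. In the 33 peaks that matched miR-196b-5p and not let-7b-5p there were 872, 1073 and 1095 reads, while the 353 that matched let-7b-5p and not miR-196b-5p held 12701, 13720 and 16696. The median peak was of like height in the shared peaks (13.2 ± 1.64), in those of let-7b-5p alone (14.0 ± 1.01) and in those of miR-196b-5p alone (15.2 ± 1.53). An 8-mer to miR-196b-5p was in 6 of its 134 peaks (4.48%), the lowest share among the 39 families with at least 30 peaks. The contrast was -0.78 ± 0.14 (limma adjusted p = 0.000273). It was not called with the same total per library (0.096), from 7-mers alone (-0.28) or with at least 30 peaks and 100 miRNA reads (0.036). It was lower and called in peaks that match 1 family (-1.67), with peaks split over families (-1.11) and in 3' UTR peaks alone (-1.66). The highest peaks, in an exon of Actb, the cytoskeletal beta-actin (chr5:142904547-142904600, 1237, 1132 and 1282 reads), and in the 3' UTR of RP23-230O9.4, which overlaps Ly6m in RefSeq (chr15:74879341-74879392, 481, 374 and 491 reads), both match let-7b-5p as well.

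Other shifted seeds shared fewer peaks. miR-16-5p and miR-103-3p had 53 in common, 20.6% of the first and 53.0% of the second, and miR-19b-3p and miR-130b-3p had 31, 36.5% and 53.4%. When a peak with such shifted seeds was given to the family of higher loading alone, the let-7b-5p contrast was 0.92 and still called, and 55 families were called in all.

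**Figure D3:**
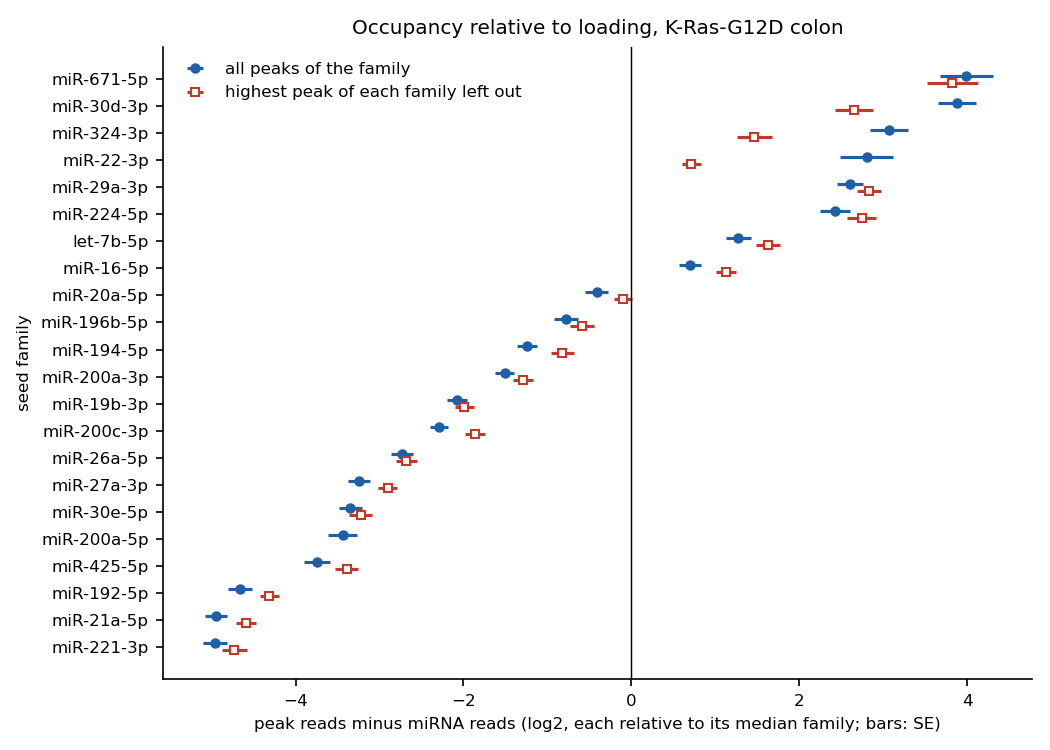
Points give the contrast of peak reads minus miRNA reads (log2, each relative to the median family of its library) for the 22 named families, with bars for the SE from limma over 3 miRNA and 3 pulldown libraries. Squares repeat it with the highest peak of each family left out, where miR-22-3p moves from 2.81 to 0.72, miR-324-3p from 3.07 to 1.47 and miR-30d-3p from 3.88 to 2.66. miR-200a-5p has no square, since too few of its peaks were left for the test.

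The family with the most peak reads was that of miR-22-3p. Its loading was 6218, 6957 and 6052, rank 18, and its 159 peaks held 39065, 15032 and 31446 normalized reads, so library 2 was the lowest. Of these reads 84.9% were in the peak of the chromosome 17 locus, a 7-mer match, with 34708, 10856 and 27038 reads. The contrast of 2.81 ± 0.32 (limma adjusted p = 5.81e-06) was 0.19 and not called with that locus left out, and 0.24 and not called in 3' UTR peaks alone. The 3 peaks of the locus held 32.0%, 12.1% and 23.8% of the reads in seed-matched peaks. Input libraries were not analysed here, so no peak is set against the abundance of its RNA.

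miR-16-5p and miR-29a-3p had many sites with low or moderate loading. The miR-16-5p family had a loading of 5247, 7005 and 4951 and matched 257 peaks in 240 genes, the fourth highest number, with 4906, 5355 and 6149 reads. The contrast was 0.70 ± 0.13 (limma adjusted p = 0.000435). Its highest peak was an 8-mer in an exon of Anks4b, a scaffold of the brush border, which also matches miR-103-3p (chr7:120182017-120182075, 213, 377 and 575 reads).

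The miR-29a-3p family, known for its collagen and DNA methylation targets, had a loading of 1284, 1890 and 1260, rank 37. Yet it matched 201 peaks in 191 genes, rank 5, with 4232, 5249 and 6386 reads. The contrast was 2.60 ± 0.16 (limma adjusted p = 2.14e-08). Its highest peak, with 18.2% of its reads, was an 8-mer at the same chromosome 17 locus (chr17:39845913-39845963, 879, 741 and 1275 reads). Without the locus the contrast was 2.24 and still called. In this family 137 of the 201 peaks matched no other family.

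The 4 other families with the highest contrasts were low in loading. miR-671-5p had 103, 82.6 and 202 normalized miRNA reads, the lowest loading of the 75 families, and 35 peaks with 983, 1218 and 1222 reads. Its contrast was 3.99 ± 0.31 (limma adjusted p = 1.95e-07), and 38.3% of its reads were in the Atp1b1 peak that holds an 8-mer for miR-200c-3p. The miR-30d-3p family (loading 244, 184 and 290, 44 peaks) had a contrast of 3.88 ± 0.23, but 70.7% of its 2106 ± 525 peak reads were in the Muc3 peak that holds the let-7b-5p 8-mer. miR-324-3p (loading 513, 462 and 760, 33 peaks) had a contrast of 3.07 ± 0.23, and 77.5% of its 2852 ± 655 peak reads were in the Muc2 peak of let-7b-5p. In 3' UTR peaks alone, which leave out that exon peak, its contrast was 0.34 and not called (limma adjusted p = 0.217). For these 3 families the highest peak was thus also a peak of a family with more loading. In peaks that match 1 family, the contrasts of miR-671-5p, miR-30d-3p and miR-324-3p were 3.79, 2.57 and 2.32. With the highest peak of each family left out they were 3.82, 2.66 and 1.47. All were still called in both settings.

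miR-224-5p differed in this. Its loading was 316, 344 and 240, and its 44 peaks held 819, 1093 and 943 reads, of which no single peak had more than 13.5%. The contrast was 2.43 ± 0.18 (limma adjusted p = 1.27e-07), and 2.74 with the highest peaks left out. Its highest peak was a 7-mer in the 3' UTR of B3galt5, a glycosyltransferase (chr16:96318182-96318282, 92.7, 131 and 162 reads).

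Over all 75 families, the highest peak held a median of 19.9% of the family's peak reads, and in 12 families it held over 50%. Of those 12, 9 were called by limma, near the 81.2% of all tested families.

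At the other end, 3 families of moderate loading had very few sites. The miR-221-3p family, with a loading of 5650, 6932 and 6490, matched 13 peaks with 118, 120 and 120 reads. Its contrast of -4.96 ± 0.15 (limma adjusted p = 8.07e-11) was the lowest of the 69, with that of miR-21a-5p (-4.95) within its error. Its highest peak, an 8-mer in the 3' UTR of Itga3, an integrin subunit, had 22.9, 18.2 and 25.9 reads and also matches miR-26a-5p and miR-181 (chr11:95044768-95044831). The miR-425-5p family had a loading of 6007, 5818 and 5359 and 21 peaks with 218, 293 and 249 reads (contrast -3.74 ± 0.15). Its highest, in an exon of Sdha, a subunit of succinate dehydrogenase, had 28.4, 30.1 and 26.6 reads (chr13:74337440-74337499).

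miR-200a-5p and miR-200b-5p, the other arms of the hairpins that give miR-200a-3p and miR-200b-3p, had a loading of 3976, 4796 and 5606. They matched 10 peaks with 192, 299 and 297 reads, of which 56.8% were in 1 exon peak of Daam1, a formin that regulates actin (chr12:71945258-71945301, 98.2, 150 and 199 reads). The contrast was -3.44 ± 0.17 (limma adjusted p = 4.09e-09).

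miR-375-3p, known from enteroendocrine cells and islets, had 9673, 9192 and 8108 normalized miRNA reads, rank 14, and matched 8 peaks with 168, 189 and 181 reads. With fewer than 10 peaks it was not among the tested families. Fitted with no filter, its contrast was -5.01. The other 5 untested families had 4 to 8 peaks, those of let-7d-3p, miR-28a-3p, miR-106b-3p, miR-139-3p and miR-3081-3p. Some abundant miRNAs had no family in the annotation and so no counted sites. miR-203-3p, known from keratinocytes, had a mean of 2766 ± 622 normalized reads and miR-101b-3p 1835 ± 425, and 11 such miRNAs were above 129, the lowest loading of any family.

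Peak height was then compared between types of site. Of the 5448 annotated peaks 1636 held an 8-mer and 1619 a 7-mer and no 8-mer. Their median heights were 12.4 ± 1.33 and 11.6 ± 0.651 normalized reads (SD, n = 3). Within libraries they were equal in library 1 (10.9 each) and higher for 8-mers in library 2 (13.4 against 11.6) and library 3 (12.9 against 12.2). With 3 libraries an exact paired test could not reach 0.05, and none was made. Peaks with none of the 4 kinds of seed match, 723 in number, had a median of 9.22 ± 0.729, lower than either in every library. In 34 families with at least 10 peaks of each type, the ratio of the 8-mer to the 7-mer median had a median of 1.01. The 8-mer median was higher in all 3 libraries in 7 families and in none of the 3 in 9. It was 2.08 times the 7-mer median for miR-147-3p and 2.05 times for miR-210-3p, the hypoxia miRNA. For let-7b-5p it was 14.7 ± 1.73 against 12.4 ± 1.10 and for miR-194-5p 14.5 ± 1.51 against 11.5 ± 0.662, both higher in 3 of 3 libraries. For miR-200c-3p the values were 11.7 ± 2.56 and 11.7 ± 1.21. For miR-34a-5p the 8-mer median was 0.70 of the 7-mer median.

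Over the 39 families with at least 30 peaks, the rho of loading and percent of peaks with an 8-mer was 0.55. The number of G and C bases in the seed went with the contrast, with a rho of 0.44 over the 61 tested families that have a RefSeq seed. The median contrast was -0.78 in the 14 families with 2 such bases, -1.01 in the 21 with 3, 0.99 in the 12 with 4 and 1.48 in the 10 with 5, so it did not rise at each step. Both are descriptions over families that share the 6 libraries. By region, 53.9% of seed-matched peaks and 56.0% of the 2193 annotated peaks without one were in 3' UTRs.

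**Figure D4:**
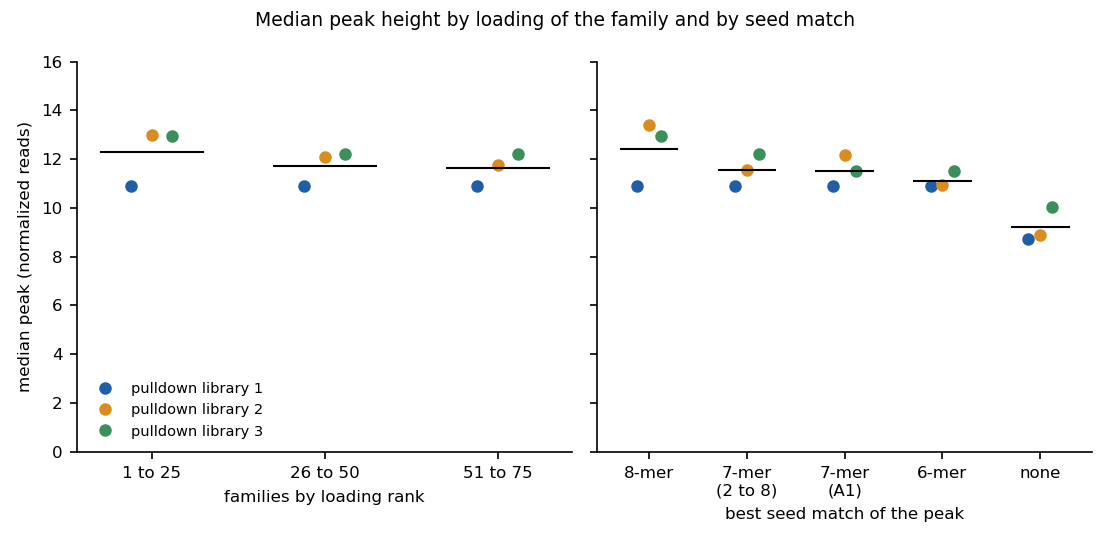
Median peak height in normalized reads in each of the 3 pulldown libraries (points) and their mean (line), at left for peaks of the families ranked 1 to 25, 26 to 50 and 51 to 75 in loading, and at right by the best seed match of the peak. The means at left are 12.3, 11.7 and 11.6, and at right they go from 12.4 for 8-mers to 9.22 for peaks with no match.

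Widely used targets were looked for in the peaks of 14 families, from a list of 87 gene and family pairs. Of these, 28 had a peak of any kind and 12 had a peak with a site of the family. For let-7b-5p, 7 of 12 listed genes had a peak and 2 had a site, where 436 of all 2568 genes with a peak had a let-7b-5p site. One was a 7-mer in the 3' UTR of Hmga2, a fetal chromatin protein (chr10:120362967-120363044), with 6.54, 4.75 and 2.15 reads, among the lowest of the family's 454 peaks. The other was an 8-mer in an exon of Dicer1, the enzyme that cuts miRNA precursors (chr12:104702666-104702722), with 28.4, 28.7 and 44.5 reads, rank 96.

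For miR-29a-3p, 4 of 9 listed genes had a peak and 2 had a site, where 7.44% of all genes with a peak had one. Mcl1, a survival factor, had an 8-mer in its 3' UTR with 32.7, 108 and 58.2 reads (chr3:95661835-95661892), rank 11 of 201. Tet3, a DNA demethylating enzyme, had 3 peaks with 8-mers, the highest of 18.5, 42.9 and 32.3 reads (chr6:83364293-83364352). Pdcd4, a tumour suppressor and the best known target of miR-21, was the 1 gene of 8 listed for miR-21a-5p with a site, an 8-mer in the 3' UTR with 10.9, 5.36 and 4.31 reads (chr19:53929426-53929474), rank 36 of 38. Of those 8 genes 4 had a peak, and 1.44% of all genes with a peak had a miR-21a-5p site.

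Met, a receptor tyrosine kinase listed for miR-34a-5p, had a 7-mer in the 3' UTR with 131, 147 and 201 reads (chr6:17571880-17571931), the second highest of that family's 50 peaks and the highest of the listed targets. Stat3 and Cdkn1a had sites of miR-20a-5p with 30.7 ± 7.24 and 15.6 ± 3.14 reads, Sec23a of miR-200c-3p with 24.9 ± 8.79, Hbegf of miR-194-5p with a mean of 17.3 and Wee1 of miR-16-5p with 11.2 ± 3.43. The share of all genes with a peak that had a site was 1.91% for miR-34a-5p and 5.88% for miR-20a-5p. It was 11.1% for miR-200c-3p, 9.89% for miR-194-5p and 9.35% for miR-16-5p. None of the listed genes had a site for miR-30e-5p (5 listed), miR-27a-3p (5), miR-26a-5p (3), miR-192-5p (4) or miR-200a-3p (5). For miR-27a-3p, miR-192-5p and miR-200a-3p no listed gene had a peak of any kind, and between 1.21% and 4.32% of all genes with a peak had a site of these families, so with so few genes listed a count of 0 says little.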

How the data were processed

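The authors deposited normalized reads, a signal, for every mature miRNA and every merged peak; each library had been divided by its own factor. Per the submitters' processing notes, the tools included STAR 2.5.2b and DESeq2 and the builds were mm10 and GRCm38. How reads were counted and peaks called is not given in the sources used here. In all 6 libraries 100.0% of values were whole multiples of 1 read within 0.01. Gene label, region class and seed matches of peaks are the authors', per the file headers. The score in the deposited peak list of this genotype was not used, only the positions (overlap of at least 1 base). Column names of the peak table give genotype and number but no library type; they were read as pulldown mRNA. Coordinates count from 1. The 6 columns of the wild-type mice were not used, though the merged peak set pools both genotypes.

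Of the 459 miRNAs, 408 had a mature sequence in RefSeq. Families took in 134 miRNAs, assigned by that seed or, for 15, by name. 9 families had no RefSeq mature sequence. limma 3.58.1 with a variance trend was used on log2(normalized reads + 1), with Benjamini-Hochberg adjustment. edgeR 4.0.16 and DESeq2 1.42.0 were run on the recovered counts as alternatives, beside other filters, pseudocounts, scalings, site types, each library left out, and the replicate number as a block. The series text says that the kinds of library were made from each sample, but same-numbered libraries did not deviate together throughout (correlations -0.11, -0.016 and 0.26), so the main test has no block. Standard deviations are over 3 libraries. The limma script was tested on simulated data.

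Named families were the 12 highest in loading, the 8 with most peak reads, and of those called the 6 highest and 6 lowest in contrast. The 2 highest peaks with a gene name are given for the first 12, and 1 for the others. Details of miR-375-3p, of single target genes and of the chromosome 17 locus were added after the values were seen. Members and lists were chosen with earlier results of these data known. One listed target is not reported here.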

Additional observations from a re-analysis of the deposited data

Results flagged for a closer look

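Reads also lay in those of the 5554 merged peaks that carry no annotation and so could not be assigned a seed family. They held 3.34%, 2.71% and 3.23% of the reads in peaks of pulldown libraries 1, 2 and 3. The highest, at chr5:137152259-137152319, had 1057, 1589 and 1914 normalized reads and lies within Muc3 in the RefSeq annotation, as does the third highest, at chr5:137152396-137152450, with 243, 364 and 288. The second highest, at chr10:82955275-82955354, had 1527, 283 and 965 normalized reads, lowest in library 2. These values are outside every comparison of the report.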

How the results depend on the processing

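In the main fit 56 families were called by limma. With 8-mers only, 34 families could be tested and 30 were called (22 higher, 8 lower). Of these 30, 28 were also called in the main fit, but only 24 of the 28 with the same sign. With at least 30 peaks and 100 miRNA reads, 39 could be tested and 36 were called (23 higher, 13 lower). Of these 36, 33 were also called in the main fit, 32 of them with the same sign. Leaving out each library in turn gave 55 to 59, and DESeq2 gave 56. With the replicate block it was 56, and all 56 calls were those of the fit without it; the pairing was not shown by the deviations. The rho of loading and number of peaks was 0.54 with 8-mers, 0.50 with 7-mers, 0.59 in peaks of 1 family, 0.58 with peaks split over families, 0.50 with the most abundant miRNA alone, 0.58 with shifted seeds given to 1 family, 0.53 in tested families, 0.50 with the stricter filter and 0.54 to 0.56 with a library left out. For peak reads, in the same order, it was 0.56, 0.44, 0.58, 0.54, 0.46, 0.52, 0.47, 0.41 and 0.50 to 0.52, and 0.56 in 3' UTR peaks and 0.57 without the highest peaks. The share of seed-peak reads in the 10 families highest in loading was 43.5% with 8-mers, 18.7% with 7-mers, 22.5% in peaks of 1 family, 40.6% in 3' UTR peaks and 38.5% without the chromosome 17 locus.

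Contrasts of 4 named families changed sign under some alternative. For miR-194-5p the value was 0.52 and called with 8-mers, and 0.29 and not called in peaks of 1 family. For miR-200a-3p it was 0.21 and not called with 8-mers. For miR-196b-5p it was 0.036 with the stricter filter and 0.096 with the same total per library, neither called. For miR-20a-5p it was above 0 and called with 8-mers (1.25) and with the most abundant miRNA alone (0.97). It was also above 0 and called with the stricter filter (0.40) and with the same total per library (0.46). In peaks of 1 family (0.066), in 3' UTR peaks (0.16) and with edgeR (0.019) it was above 0 and not called. Without the highest peaks it was -0.096 and not called. The stricter filter left the reads of each family as they were and changed only the median family, taken over 39 families in place of 69. All contrasts moved up with it, that of miR-200c-3p from -2.29 to -1.48. The same total per library likewise changed only the scaling. The cause of the other changes of sign was not tested. Pulldown library 1 had the fewest reads, and peaks near its median rest on about 10 reads there. The alternatives with shifted seeds, the chromosome 17 locus, the tested families alone and replicate numbers left out as pairs were chosen after the data were seen.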
